A study of Rattus norvegicus with 36 samples.

Results

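Transcripts of 7 circadian clock genes were followed in the striatum of 36 rats, as 7 of the 23965 genes in the count table. They were chosen by Ensembl identifier as components of the clock and one of its outputs: Arntl (ENSRNOG00000014448) and Clock (ENSRNOG00000002175), Per1 (ENSRNOG00000007387), Per2 (ENSRNOG00000020254) and Per3 (ENSRNOG00000018413), Nr1d1 (ENSRNOG00000009329), and Dbp (ENSRNOG00000021027). Nr1d1 is on the list because the study reported it, from these same libraries, as higher in transgenic rats after enrichment. Its values, above all in that comparison, are therefore not independent evidence of that choice. The pairing of identifiers and symbols came with the list and was not checked against an annotation here. All 7 passed the filter on low counts, which kept 12657 genes.

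RNA of male Sprague Dawley rats aged 2 months was sequenced, with 6 rats in each of 6 groups. Wildtype (WT) rats and BACHD transgenic (TG) rats, both from pairings of BACHD males with wildtype females, were raised in a standard environment (SE), in an enriched environment (EE) with larger cages and changing objects, or in standard cages after daily maternal separation as pups (MS, labelled ELS). The groups are written WT_SE, TG_SE, WT_EE, TG_EE, WT_MS and TG_MS. TG rats carry the whole human mutant HTT gene with its own regulatory sequence on a bacterial artificial chromosome, so its expression is not restricted to a cell type by design. Whole litters were allocated to an environment and littermates shared cages, so environment, litter and cage cannot be told apart within these groups. Lights followed a regular cycle, but the hour at which each rat was killed is not given in the sources used here. The striatal label was not checked against marker genes, and other clock genes such as the Cry genes were not analysed here, because identifiers could not be paired with further symbols.

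The clock is a feedback loop of transcription that runs in nearly every cell. BMAL1, the product of Arntl, and CLOCK together activate genes with E-box motifs, among them the Per genes, Nr1d1 and Dbp. PER proteins then repress BMAL1 and CLOCK, while REV-ERB alpha, the product of Nr1d1, represses Arntl through the AGGTCA core motif, and DBP activates genes with D-box motifs. In most tissues Arntl transcripts peak at nearly the opposite time of day to Nr1d1 and Dbp, with the Per genes in between, so the level of each gene depends on the hour of sampling.

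Promoter sequence shows where such motifs stand in the genes whose levels are compared below. RefSeq windows on the rat build GRCr8, from 250 bases before to 50 bases after a transcript start, were at hand for all 7 genes, in 9 windows because Nr1d1 and Clock have several starts. Both strands were searched for the E-box CACGTG, the core AGGTCA, the D-box TTATGTAA (contained in the looser form TTANGTAA) and the CRE TGACGTCA. The 3 windows with a match are printed 5′ to 3′ on the gene's strand, with the match in capitals: the second start of Nr1d1 with an E-box (chr10:84229405-84229704, minus strand), Arntl with the core motif (chr1:176766078-176766377, plus strand) and Per2 with the D-box (chr9:99496944-99497243, minus strand).
Nr1d1: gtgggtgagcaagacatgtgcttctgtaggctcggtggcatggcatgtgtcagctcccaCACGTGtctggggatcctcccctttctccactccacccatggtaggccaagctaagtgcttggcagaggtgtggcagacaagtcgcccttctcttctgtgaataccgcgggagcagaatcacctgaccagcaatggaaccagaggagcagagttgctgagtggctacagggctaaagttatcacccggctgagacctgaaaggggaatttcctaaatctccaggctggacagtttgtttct
Arntl: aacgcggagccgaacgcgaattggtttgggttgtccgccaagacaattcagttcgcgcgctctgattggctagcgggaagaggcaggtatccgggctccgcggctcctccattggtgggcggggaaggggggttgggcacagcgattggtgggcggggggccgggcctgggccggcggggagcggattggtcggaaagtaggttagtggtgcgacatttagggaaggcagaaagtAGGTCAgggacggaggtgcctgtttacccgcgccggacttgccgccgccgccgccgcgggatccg
Per2: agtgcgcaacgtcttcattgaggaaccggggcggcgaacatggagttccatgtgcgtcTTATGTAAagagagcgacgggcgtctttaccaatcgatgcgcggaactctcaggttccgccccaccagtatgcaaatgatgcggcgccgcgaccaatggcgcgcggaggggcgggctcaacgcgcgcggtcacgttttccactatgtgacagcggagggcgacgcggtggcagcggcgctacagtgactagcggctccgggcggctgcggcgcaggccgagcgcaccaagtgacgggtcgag
The E-box began 191 bases before the start of Nr1d1, the core motif 15 bases before that of Arntl and the D-box 192 bases before that of Per2. Among all 33469 promoter windows, 6.42% held the E-box, 16.2% the core motif, 0.893% the D-box and 2.24% its looser form, and 1.83% held the CRE. A match describes these letters only, and the other 6 windows held none of the motifs searched. Other forms of the motifs and sequence outside the windows were not searched, so the lack of a match does not show that a gene lacks such motifs.

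Total counts per library ran from 9895073 to 19284439, no pair of libraries was identical, and levels are given as normalized counts scaled to the mean depth. Differences between groups are log2 fold changes with their standard error (SE of the fit) from edgeR's quasi-likelihood test. That fit of all 36 libraries held 5 surrogate variables (estimated hidden covariates), which normalized counts do not correct for. Calls required a p of at most 0.1, adjusted over all genes tested by the Benjamini-Hochberg procedure, and a log2 fold change of 0.3 or more in either direction. Whole striatum was sequenced, so fewer cells of a type and less RNA per cell cannot be told apart.

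None of the 7 clock genes was called in any of the 12 comparisons by edgeR or by DESeq2 with the same surrogate variables, and DESeq2 without them called 1, Nr1d1. By edgeR, 11 of the 84 values had an unadjusted p under 0.05, a level that 3.05% to 15.3% of all genes reached, depending on the comparison. The TG/WT comparison called 0.213% of all genes in the standard environment, 0.411% after enrichment and 0.134% after maternal separation, and 0.577% with the environments averaged. For EE or MS against SE within a genotype, and for both interactions of environment with genotype, 0% of all genes were called by edgeR with 5 surrogate variables. Other fits called genes there. For example, with library sets as covariate edgeR called 50 genes in WT_MS/WT_SE and 8 in the EE interaction, and DESeq2 without surrogate variables called 60 and 19, none of them a clock gene. DESeq2 without surrogate variables also called 10 genes in TG_EE/TG_SE, Nr1d1 among them. With genotypes averaged, 0.0079% were called for EE against SE and 0% for MS against SE. Clock genes stood on both sides of 0 in each comparison. In TG_SE/WT_SE the 7 log2 fold changes ran from -0.15 to 0.10, and in TG_EE/WT_EE from -0.16 to 0.27. The median over the 7 genes in TG_EE/WT_EE was 0.13, beside 0.00 over all genes tested. In WT_EE/WT_SE they ran from -0.38 for Per2 to 0.08 for Nr1d1. All comparisons against SE of a genotype share the same 6 SE libraries.

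**Figure D1:**
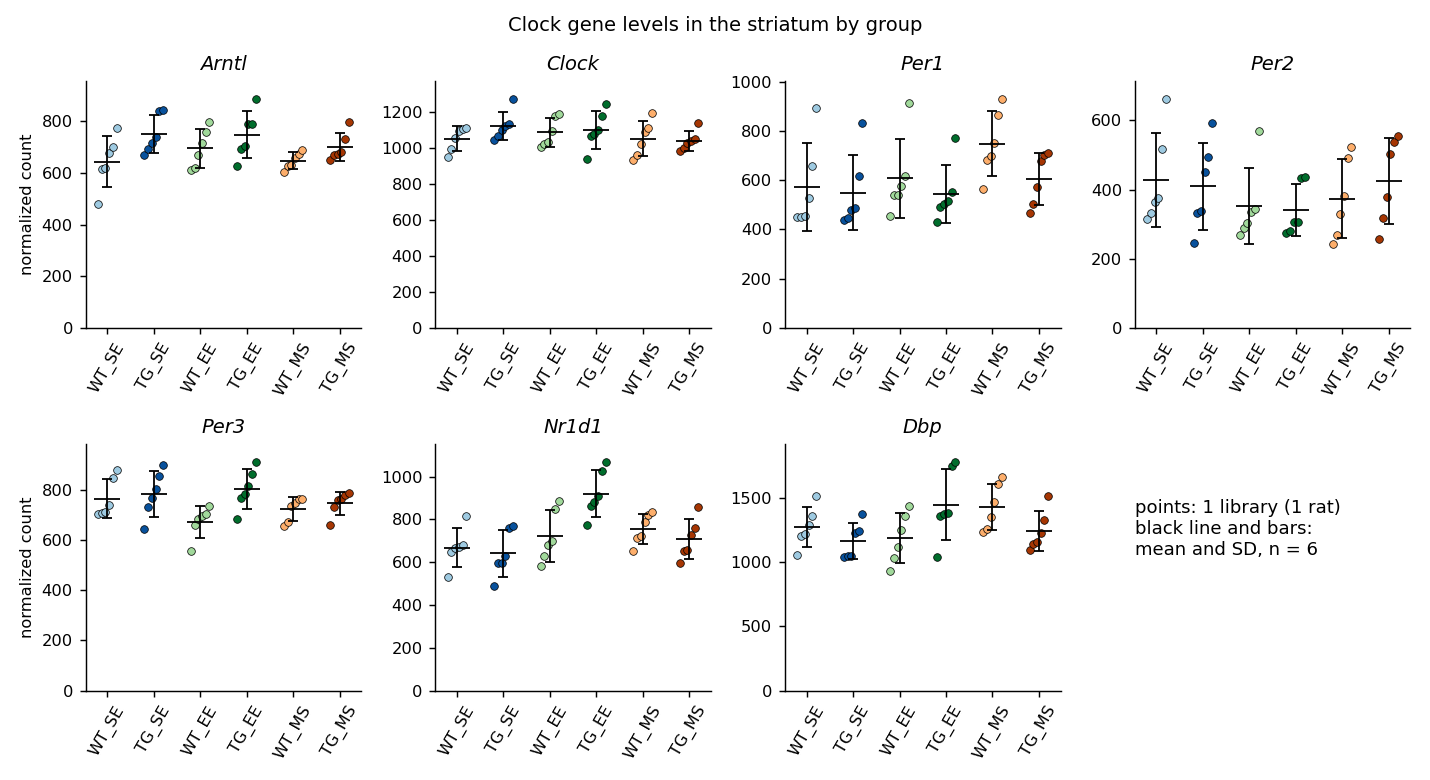
Normalized counts (vertical axes, from 0) of the 7 clock genes in 6 groups (horizontal axes), with 1 point per rat and the mean and SD of 6 rats in black. Nr1d1 in TG_EE, from 772 to 1069, lies just above all TG_SE rats, whose highest value was 769, while the other genes overlap between these groups.

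Arntl and Clock encode the activating arm of the loop. Arntl ran from 479 to 774 normalized counts in WT_SE (median 648) and from 671 to 845 in TG_SE (median 728). In EE it ran from 610 to 798 in WT_EE (median 692) and from 628 to 885 in TG_EE (median 747). After maternal separation it ran from 605 to 690 in WT_MS (median 645) and from 649 to 798 in TG_MS (median 677). The TG group had the higher median in each environment, yet WT and TG rats overlapped in all 3. Averaged over environments, Arntl was 0.15 ± 0.04 (SE) higher in TG rats on the log2 scale, with an edgeR quasi-likelihood adjusted p of 0.0256. That is below the minimum fold change, and without such a minimum 4.84% of all genes were called. With 0 surrogate variables the difference was again 0.15 but its edgeR adjusted p was 0.173. Within environments, the TG/WT difference of Arntl was 0.10 ± 0.07 in the standard environment, 0.12 ± 0.07 in the enriched one and 0.23 ± 0.07 after separation (edgeR unadjusted p = 0.00291, adjusted p = 0.304). With 0 surrogate variables their order turned, with 0.22 in the standard environment (edgeR unadjusted p = 0.0145, adjusted p = 0.352) and 0.11 after separation. In the 6 sets of consecutive library numbers, the TG value was above the WT value in 5 sets for the standard environment, 3 for the enriched one and 5 after separation.

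Clock, which encodes the partner of BMAL1, was the steadiest of the 7. Its group medians lay between 1031 in TG_MS and 1109 in TG_SE, and its 36 values between 930 and 1268 normalized counts. All groups overlapped, and its log2 fold changes in the 7 comparisons of 2 groups stayed within 0.1 of 0. In TG_EE/WT_EE it reached 0.09 ± 0.04 (edgeR unadjusted p = 0.0184, adjusted p = 0.303), which was 0.02 with 0 surrogate variables and 0.06 without replicate 5 of WT_EE.

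Per1, Per2 and Per3 encode the period proteins of the repressing arm. Per1 was highest by median in WT_MS, with values from 566 to 929 (median 725), against 451 to 894 in WT_SE (median 490). In WT_EE it ran from 455 to 915 (median 559), in TG_SE from 438 to 832 (median 482), in TG_EE from 430 to 772 (median 510) and in TG_MS from 469 to 709 (median 625). A single rat in each of WT_SE, TG_SE, WT_EE and TG_EE reached far above the rest of its group, and all groups overlapped. The log2 fold change of WT_MS/WT_SE was 0.14 ± 0.19, which was 0.39 with 0 surrogate variables (edgeR unadjusted p = 0.0357, adjusted p = 0.585). Per1 was lower in TG than in WT rats in each environment, with log2 fold changes of -0.15 ± 0.19 in the standard environment, -0.16 ± 0.18 in the enriched one and -0.24 ± 0.18 after separation, none of them called.

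Relative to its lowest value, Per2 had the broadest range of the 7 genes, with a highest value 2.71 times the lowest. It ran from 316 to 661 normalized counts in WT_SE (median 369), from 246 to 593 in TG_SE (median 394), from 269 to 569 in WT_EE (median 320) and from 276 to 436 in TG_EE (median 306). In WT_MS it ran from 244 to 522 (median 356) and in TG_MS from 256 to 556 (median 440). The ranges of all groups overlapped, but no TG_EE rat lay above 436, while each other group reached 522 or more. In WT_EE a single rat lay above 344. The log2 fold change of WT_EE/WT_SE was -0.38 ± 0.21, with a 95% interval that includes 0 and no call, and -0.27 with 0 surrogate variables.

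Per3 differed most between WT_EE and TG_EE. It ran from 556 to 735 in WT_EE (median 690) and from 684 to 912 in TG_EE (median 799). Most TG_EE rats lay above all WT_EE rats, and in 5 of 6 sets of consecutive numbers the TG rat had the higher value. The log2 fold change was 0.27 ± 0.08 (edgeR unadjusted p = 0.0022, adjusted p = 0.146). With pairs of consecutive library numbers as covariate the edgeR adjusted p was 0.0653, and DESeq2 with the same surrogate variables gave 0.0661. Their fold changes of 0.26 and 0.27 were below the minimum, so Per3 was not called. Over the other edgeR and DESeq2 alternatives with all libraries the adjusted p reached up to 0.361. Without replicate 5 of TG_EE the log2 fold change was 0.32, with an edgeR adjusted p of 0.0775, and Per3 was called. It was the single member called in the edgeR fits that left out 1 library. In the standard environment Per3 ran from 703 to 880 in WT_SE (median 726) and from 645 to 901 in TG_SE (median 786). WT_EE stood below WT_SE, with a log2 fold change of -0.23 ± 0.08 (edgeR unadjusted p = 0.0101, adjusted p = 0.694). Without replicate 6 of WT_EE it was -0.14 (edgeR unadjusted p = 0.136), and TG_EE differed from TG_SE by 0.03 ± 0.09. The interaction of EE with genotype was 0.26 ± 0.13 (edgeR unadjusted p = 0.0503, adjusted p = 0.999). After maternal separation values ran from 656 to 766 in WT_MS and from 662 to 788 in TG_MS, almost the same span.

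Nr1d1 encodes the nuclear receptor REV-ERB alpha, which links the loop to metabolism. It ran from 489 to 769 normalized counts in TG_SE (median 615) and from 772 to 1069 in TG_EE (median 896), so that every TG_EE rat exceeded every TG_SE rat. The gap between the nearest rats was small, and of all genes tested 0.166% separated the same groups without overlap with TG_EE higher. Mean normalized counts were 920 ± 109 (SD, n = 6) in TG_EE and 641 ± 108 (SD, n = 6) in TG_SE, a ratio of 1.44 (two-sided exact permutation test, unadjusted p = 0.00216, the smallest that 924 assignments allow). The study picked Nr1d1 from this same comparison in these libraries, so neither the separation nor the p-values are independent evidence of a difference. The study also measured Nr1d1 by qPCR and reported the same genotype-specific rise. For the protein it reported a similar tendency that was not significant. Neither measurement was examined here. The fit with surrogate variables gave a log2 fold change of 0.35 ± 0.11 (edgeR unadjusted p = 0.00305, adjusted p = 0.9998), so Nr1d1 was not called. With 0 surrogate variables it was 0.52 (edgeR adjusted p = 0.198), and DESeq2 without surrogate variables gave 0.52 with an adjusted p of 0.0262 and called it, among 0.079% of all genes. Over the other edgeR and DESeq2 alternatives the adjusted p was 0.144 or more.

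In the remaining groups Nr1d1 ran from 533 to 816 in WT_SE (median 668), from 581 to 887 in WT_EE (median 692), from 652 to 833 in WT_MS (median 756) and from 594 to 857 in TG_MS (median 692). These groups overlapped one another and, with the exception of TG_SE, each also overlapped TG_EE. Against WT_EE, TG_EE was higher in all 6 sets of consecutive library numbers, by 0.21 ± 0.10 on the log2 scale (edgeR unadjusted p = 0.0368, adjusted p = 0.388). That value was 0.35 with 0 surrogate variables (edgeR unadjusted p = 0.0027, adjusted p = 0.258) and 0.11 when at least 50 counts were asked of every library. The interaction of EE with genotype was 0.27 ± 0.16 (edgeR unadjusted p = 0.0888, adjusted p = 0.999), so the EE difference in TG rats was not shown to differ from the one in WT rats, 0.08 ± 0.10. The interaction was 0.42 with 0 surrogate variables (edgeR unadjusted p = 0.0108, adjusted p = 0.839), 0.46 with 2 (edgeR unadjusted p = 0.00417, adjusted p = 0.411) and 0.18 without replicate 4 of WT_SE (edgeR unadjusted p = 0.251). Averaged over genotypes, EE/SE was 0.22 ± 0.07 (edgeR unadjusted p = 0.00469, adjusted p = 0.843).

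Dbp encodes a clock-controlled transcription factor of the output of the loop. In TG_EE it ran from 1038 to 1781 normalized counts (median 1382) and in TG_SE from 1038 to 1373 (median 1137). Its lowest TG_EE rat was level with the lowest TG_SE rat, while the other TG_EE rats lay at the upper end of TG_SE or above. Dbp ran from 1057 to 1519 in WT_SE (median 1256) and from 932 to 1441 in WT_EE (median 1183), the opposite order of medians. The interaction of EE with genotype was 0.28 ± 0.12 on the log2 scale (edgeR unadjusted p = 0.0308, adjusted p = 0.999). It was 0.42 with 0 surrogate variables (edgeR adjusted p = 0.839) and 0.52 with 2 (edgeR unadjusted p = 0.000886, adjusted p = 0.393). The fit gave 0.12 ± 0.09 for TG_EE/TG_SE, against 0.32 with 0 surrogate variables (edgeR adjusted p = 0.521). After maternal separation Dbp ran from 1232 to 1668 in WT_MS (median 1411) and from 1095 to 1515 in TG_MS (median 1191), and the WT rat was higher in each of the 6 sets of consecutive numbers. That log2 fold change was -0.14 ± 0.09 and was not called.

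**Figure D2:**
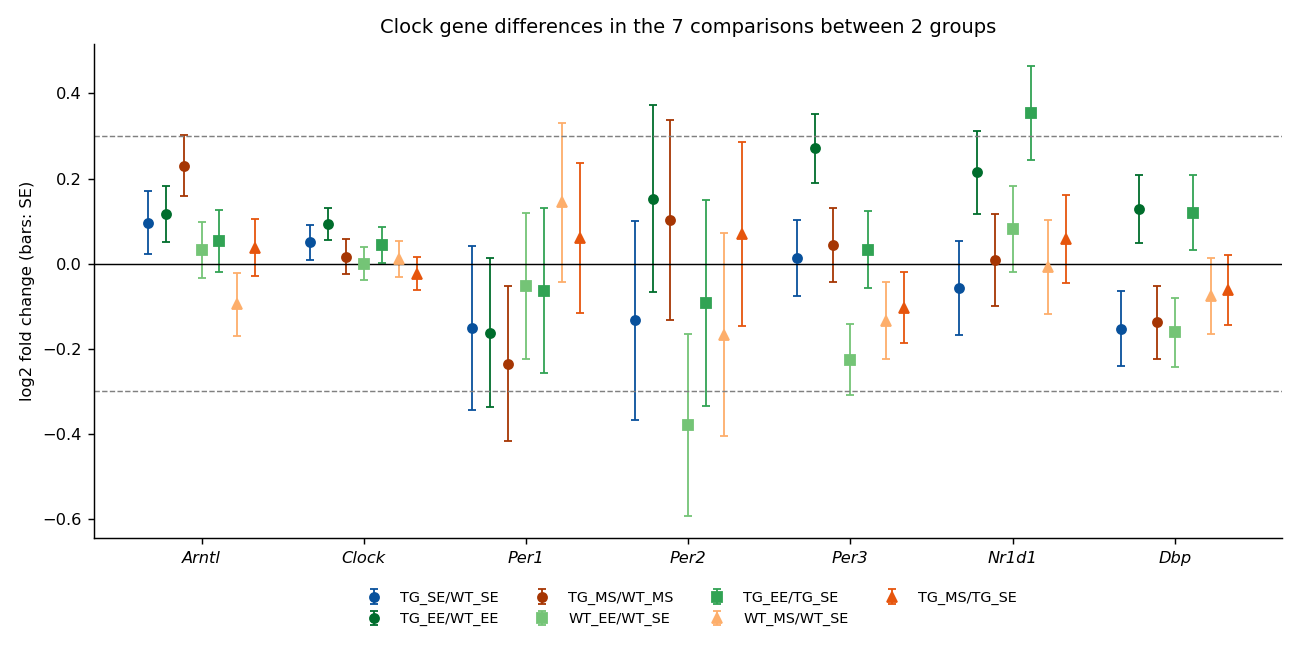
Log2 fold changes (vertical axis) of the 7 clock genes (horizontal axis) in the 7 comparisons of 2 groups, with bars for the SE of the edgeR fit and dashed lines at the minimum fold change of 0.3. Nr1d1 in TG_EE/TG_SE at 0.35 and Per2 in WT_EE/WT_SE at -0.38 are the values beyond a dashed line, and none was called.

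Within groups, rats differed most in Per2 and Per1. The highest of the 36 Per2 values was 2.71 times the lowest, and its residual SD around the group means, 0.384 on the log2 scale, exceeded that of 97.3% of the genes tested. The SD was 0.297 for Per1, above 93% of genes, against a median of 0.145 over all genes. Nr1d1 (0.185) and Dbp (0.194) varied more than 70.1% and 73.3% of genes. Arntl (0.145) stood at the middle, and Per3 (0.124) and Clock (0.102) varied less than most genes. The surrogate variables held 71.8% of the variance of Clock within groups, 48% of that of Dbp and 47.6% of that of Arntl, against 7.85% for Per3 and a median of 39.7% over all genes.

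Levels of several clock genes moved together from rat to rat. After subtracting group means from log2 CPM, the counts scaled to library size, 7 of the 21 pairs had an unadjusted p under 0.05 over 36 libraries. The share over all pairs of genes is not given here, so this count cannot be set against a background. In edgeR's test of the slope on Clock across all genes, 31.2% were called, and 19.1% for Dbp, so relations to these genes were common. The tests of pairs were permutation tests with 100000 resamples, whose smallest possible p is 1e-05. For values with the surrogate variables taken out, the permutations made no allowance for the variables removed, so those p-values are too small. Nr1d1 and Per2 had Pearson r = -0.77 (permutation p = 1e-05) and Spearman rho = -0.74 (permutation p = 3e-05): rats with more Nr1d1 had less Per2. Without the 2 libraries farthest from the Nr1d1 median r was again -0.77, and it was -0.77 with values centred by group and library set. Within WT rats r was -0.72, within TG rats -0.82, and within SE, EE and MS rats -0.79, -0.67 and -0.89. In the order of r with Per2, Nr1d1 was the lowest of 12656 other genes, and in a test of the slope on Nr1d1 across all genes Per2 had an adjusted p of 0.000161 by edgeR, where 1.76% of genes were called.

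Nr1d1 and Dbp moved in the same direction, with r = 0.61 (permutation p = 0.00031) and rho = 0.62 (permutation p = 0.0003). Without the 2 farthest libraries r was 0.66, and within library sets 0.62, but 0.35 after the surrogate variables were taken out (permutation p = 0.0352). Within environments it was 0.86 in EE, 0.84 in MS and 0.12 in SE, where it did not hold, and the difference between environments was not tested. In the slope test on Nr1d1, Dbp had an edgeR adjusted p of 0.0364.

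Dbp and Clock moved in opposite directions, with r = -0.63 (permutation p = 0.00013) and rho = -0.63 (permutation p = 0.00019). The value was -0.53 without the 2 farthest libraries and -0.68 within library sets, but -0.29 after the surrogate variables were taken out (permutation p = 0.0926, also too small). The slope on Dbp called Clock with an edgeR adjusted p of 0.00835, where 19.1% of all genes were called, and the slope on Clock called 31.2% of all genes.

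Per1 and Per2 rose and fell together, with r = 0.53 (permutation p = 0.00228) and rho = 0.47 (permutation p = 0.00814). The value was 0.47 without the 2 farthest libraries, 0.48 within library sets, 0.78 within WT rats and 0.26 within TG rats. The slope on Per2, which called 5.46% of genes, gave Per1 an edgeR adjusted p of 0.0377, whereas the slope on Per1, which called 0.387%, gave Per2 0.107. Dbp and Per2 had r = -0.44 (permutation p = 0.0141) and rho = -0.41 (permutation p = 0.0212), with -0.42 without the 2 farthest libraries and -0.43 within library sets. Clock and Per2 had r = 0.39 (permutation p = 0.0294) and rho = 0.39 (permutation p = 0.0322), with 0.36 without the 2 farthest libraries and 0.22 within library sets. Nr1d1 and Clock had r = -0.36 (permutation p = 0.0495) and rho = -0.35 (permutation p = 0.0532), with -0.40 without the 2 farthest libraries and -0.24 within library sets. These last 2 relations were lost within library sets, and with the surrogate variables taken out their r was 0.00 and 0.05. Per3 had no pair under 0.05, and the slope on Per3 called 0% of all genes.

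**Figure D3:**
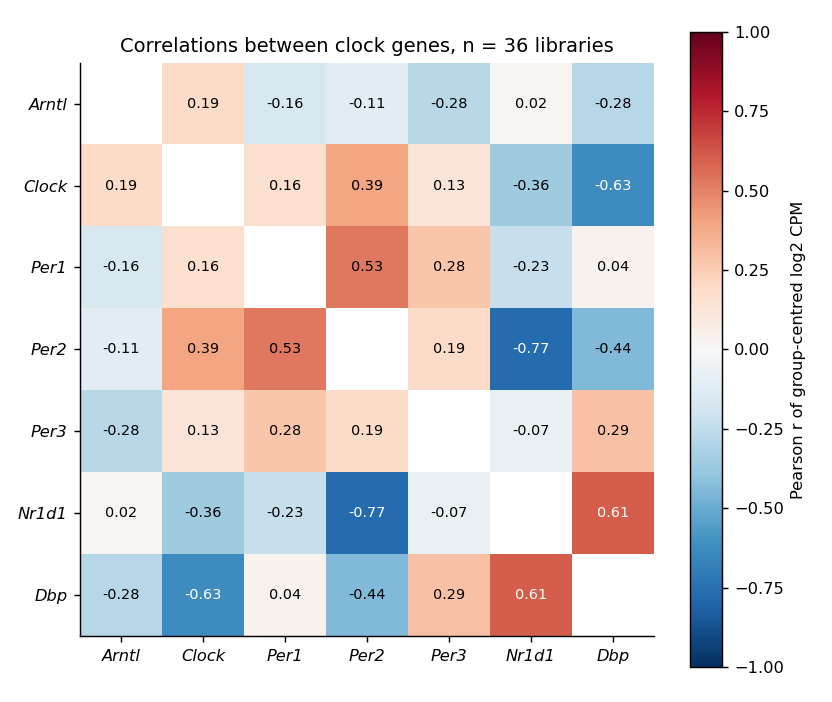
Pearson r of log2 CPM minus the group mean for each pair of the 7 clock genes over 36 libraries, printed in each cell and coloured from blue (negative) to red (positive). Nr1d1 with Per2 at -0.77 and Dbp with Clock at -0.63 are the lowest values, and Nr1d1 with Dbp at 0.61 the highest.

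Arntl, whose transcripts peak opposite to Nr1d1 and Dbp in other tissues, showed no pair with an unadjusted p under 0.05 within these groups. Its r was 0.02 with Nr1d1 (rho = -0.07, permutation p = 0.919 for r and 0.688 for rho), and -0.28 with Dbp (rho = -0.24, permutation p = 0.123 and 0.19). With Clock r was 0.19 (rho = 0.23, permutation p = 0.308 and 0.202). With Per1, Per2 and Per3 it was -0.16, -0.11 and -0.28 (rho = -0.17, -0.04 and -0.31, permutation p of r = 0.379, 0.548 and 0.13). The edgeR slope on Arntl called 0 of the other 6 clock genes and 8.29% of all genes, with edgeR unadjusted p-values of 0.0774 for Dbp and 0.924 for Nr1d1. Within library sets r was -0.59 with Dbp (permutation p = 0.00145), 0.53 with Clock (permutation p = 0.00521) and -0.43 with Per3 (permutation p = 0.0285), and -0.07 with Nr1d1. With surrogate variables taken out, r with Dbp was -0.71 (permutation p = 2e-05, too small for the reason given above). The direction was not the same in every environment: r of Arntl and Dbp was -0.65 in SE rats (permutation p = 0.0275), -0.32 in EE rats (permutation p = 0.329) and 0.50 in MS rats (permutation p = 0.113), and the difference between environments was not tested. For Arntl and Nr1d1 no permutation p was under 0.05 in these settings.

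**Figure D4:**
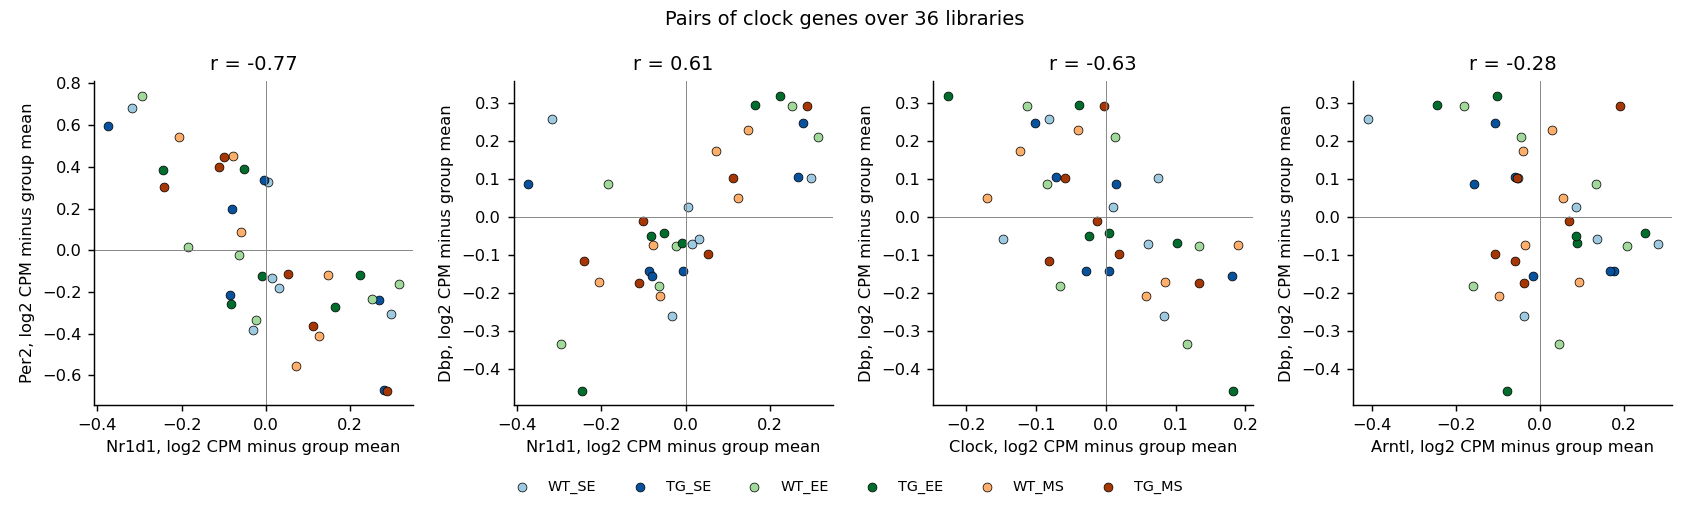
Log2 CPM minus the group mean for 4 pairs of clock genes, with 1 point per library coloured by group, and Pearson r above each panel. Per2 falls as Nr1d1 rises (r = -0.77), Dbp rises with Nr1d1 (r = 0.61) and falls with Clock (r = -0.63), and Dbp shows no clear order with Arntl (r = -0.28).

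Libraries are numbered from 1 to 36, and each of the 6 sets of 6 consecutive numbers holds 1 library of every group. What a number marks is not stated in the labels. In edgeR's test of these sets, 30.1% of all genes were called, and Clock was the single clock gene called (F = 3.48, adjusted p = 0.057). Its set means were 1014 ± 57.7 (SD, n = 6), 1008 ± 72.7, 1071 ± 66.1, 1106 ± 48.2, 1142 ± 97.8 and 1098 ± 74.9 normalized counts, lower in both of the first sets than in the others. Leaving out replicate 2 or 5 of WT_MS, or replicate 5 of TG_SE or TG_MS, removed the call of Clock, and leaving out any of 6 other libraries added Dbp or Per3. Dbp missed the call (edgeR adjusted p = 0.128), with set means from 1127 ± 96.4 to 1456 ± 220 (SD, n = 6).

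Consecutive numbers also pair a WT with a TG library of the same environment, in 18 pairs. In edgeR's test of pairs 10.9% of all genes were called and none of the 7, with adjusted p-values of 0.115 for Per3 and 0.147 for Per2 and unadjusted p under 0.05 for these 2 genes alone. Over the 18 pairs the WT and TG values, less their group means, had r = 0.49 for Per3 (permutation p = 0.0373) and rho = 0.61 (permutation p = 0.0088), beside a median r of 0.18 over all genes. For Per2 r was 0.30 (permutation p = 0.217), and for the other 5 genes between -0.24 and 0.11. These permutations made no allowance for the group means already removed, so their p-values are too small. Per3 was also the most extreme of the 7 genes tested. With values also centred by library set, r was 0.29 for Per3, beside a median of -0.19 over all genes, and 0.08 for Per2. Centring by set lowers r between libraries of the same set by construction, so the negative median does not show that pairs differed.

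**Figure D5:**
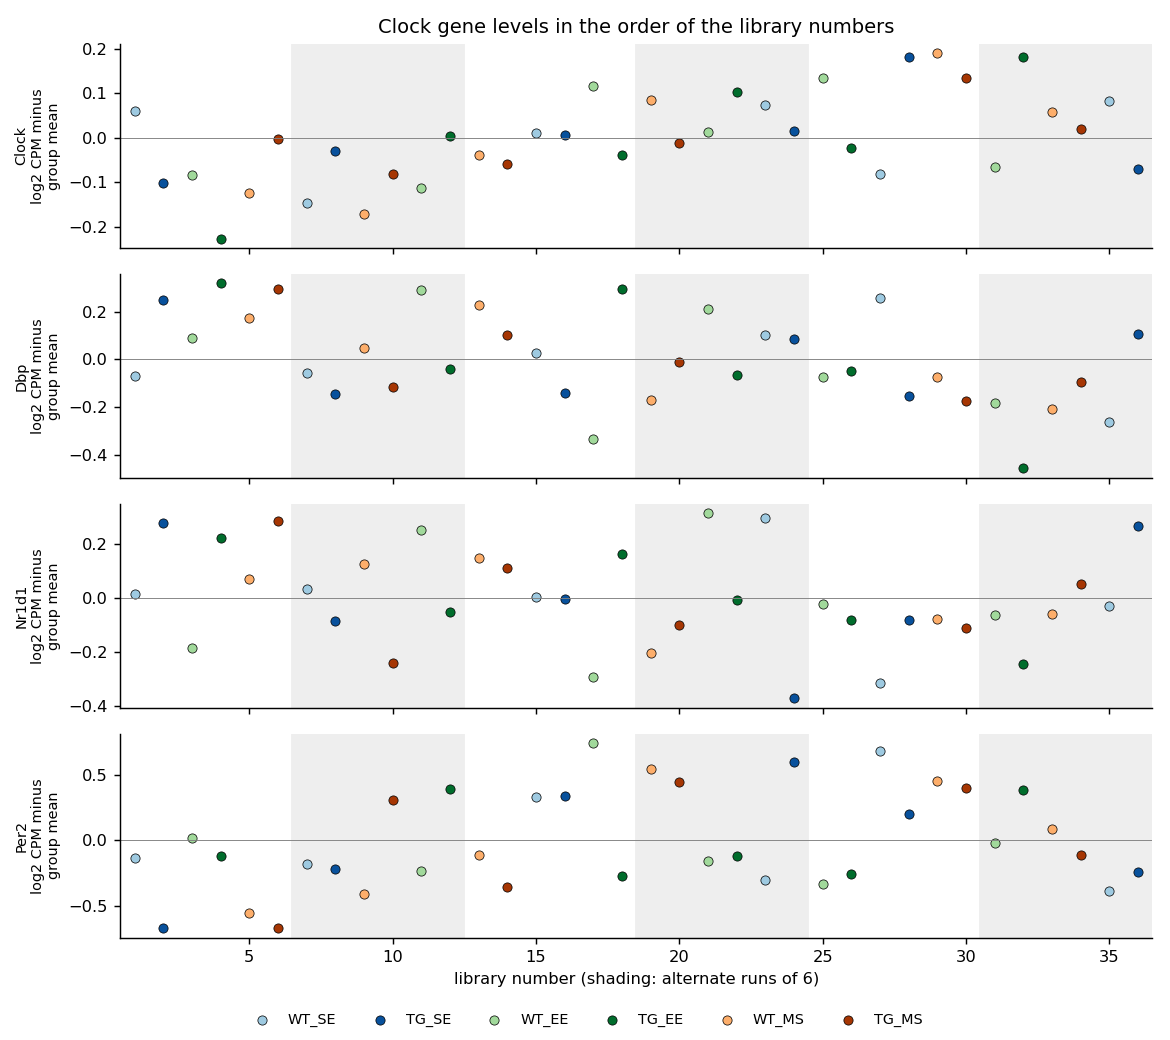
Log2 CPM minus the group mean (vertical axes) of Clock, Dbp, Nr1d1 and Per2 against library number (horizontal axis), with 1 point per library coloured by group and alternate sets of 6 numbers shaded. Clock lies mostly below 0 in the first 12 libraries, where its set means were 1014 and 1008, while Nr1d1 and Per2 scatter to both sides of 0 in most sets.

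Genes outside the list that resembled its members most are known here by identifier alone. Over 36 libraries the highest r with Nr1d1 was 0.83, for ENSRNOG00000018666, and the lowest was -0.78, for ENSRNOG00000018294, just beyond Per2. The highest r with Clock was 0.88, for ENSRNOG00000012385, and the lowest r with Arntl was -0.77, for ENSRNOG00000050636. For Per3 the highest r of any gene was 0.64 (edgeR slope test, adjusted p = 0.842), so that no gene followed Per3 past the threshold.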

How the data were processed

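Poly(A) RNA-seq libraries of rat striatum, 6 per group in 6 groups, were analysed. The authors aligned reads with STAR 2.5.2b and deposited unnormalized counts for each Ensembl gene, and the table was checked to hold whole numbers. The counting program and its use of strand are not given in the sources used here, so reads of overlapping or antisense genes cannot be told apart. The labels also name FastQC 0.11.4 and DESeq2 1.16.1.

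Genes averaging 50 or more raw counts per library entered the tests, run in R 4.3.3 with edgeR 4.0.16 (quasi-likelihood, TMM), 1 mean per group and 5 surrogate variables from sva 3.50.0 (permutation procedure, seed 1; the asymptotic procedure gave 0). Group labels gave the genotype and environment, and p-values were adjusted over all genes tested by the Benjamini-Hochberg procedure. Library sets, pairs and slopes on a clock gene were tested without surrogate variables. Log2 CPM used a prior count of 0.5, and correlations used numpy and scipy. The 95% intervals of fold changes use the residual degrees of freedom of the fit. The scripts were tested on simulated counts.

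The 7 genes, the lists and the tests were chosen with earlier results of these data known. The rule for named genes was the 7 members and, for each, the tested genes most and least alike. Lists of other clock genes, of activity and glucocorticoid genes and of cell type markers were not analysed here, since the reference does not pair Ensembl identifiers with symbols. Alternatives were 0 or 2 surrogate variables, library sets or pairs as covariate, DESeq2 1.42.0 with and without surrogate variables, its size factors, other count minimums and thresholds, the compared groups alone, and each library left out.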

Additional observations from a re-analysis of the deposited data

Results flagged for a closer look

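In 3 of the 42 combinations of a clock gene and a group, the highest rat stood apart from the other 5 by Dixon's ratio, where chance flags about 1 in 20. Replicate 3 of WT_EE reached 915 normalized counts for Per1, against 619 for the next rat, and the same library reached 569 for Per2, against 344. Replicate 1 of TG_EE reached 772 for Per1, against 553 for the next rat. No interaction of environment with genotype passed an adjusted p of 0.1 for any of the 7 genes by edgeR, with 1 unadjusted p under 0.05, that of Dbp with EE.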

How the results depend on the processing

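Of 574 log2 fold changes under the alternatives, for 12 gene and comparison results, none changed sign and 3 crossed the call threshold. Alternatives that changed only a threshold kept the fold changes of the main fit, so their signs could not change. The 12 results were the 11 with an unadjusted p under 0.05 in the main fit, and the Nr1d1 interaction with EE. Stable signs were thus partly fixed by that choice. Among the other values some did change sign between 5 and 0 surrogate variables. For example, Dbp in WT_MS/WT_SE went from -0.08 to 0.17, and Arntl in the MS interaction from 0.13 to -0.11. DESeq2 without surrogate variables called 1 clock gene in TG_EE/TG_SE, Nr1d1 (0.52, adjusted p = 0.0262, and 0.144 or more in its other alternatives), dropping the minimum fold called 1 gene in TG/WT averaged, Arntl, and leaving out 1 library gave 0 to 1 call in TG_EE/WT_EE, that of Per3 without replicate 5 of TG_EE. In edgeR's test of library sets, which called 30.1% of all genes with no library left out, 0 to 2 clock genes were called with 1 left out. The DESeq2 likelihood ratio test called 2 for library sets, Dbp and Clock, among 4144 of the 12657 genes tested. For pairs that test called 2, Per2 and Per3, among 2021 of all genes. The slope on Arntl called 1 other clock gene, Dbp, with values centred by group and library set, among 571 of all genes. With surrogate variables taken out it again called Dbp alone of the clock genes, among 5 of all genes.

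Among the correlations, 18 of 585 recomputed values changed sign, mostly of pairs near 0. Nr1d1 with Arntl gave -0.070 within library sets, -0.11 with surrogate variables taken out, -0.027 in TG rats and -0.45 in EE rats, and -0.18 to 0.082 with 1 library left out. Arntl with Per2 gave 0.10 with surrogate variables taken out, 0.024 in TG rats and 0.23 in EE rats, and -0.18 to 0.074 with 1 library left out. Nr1d1 with Clock gave 0.048 with surrogate variables taken out, Dbp with Per2 gave 0.12 in SE rats, and Arntl with Per3 gave 0.071 in EE rats. In MS rats Arntl gave 0.50 with Dbp, -0.10 with Clock and 0.44 with Per1. The causes were not tested. With pairs as covariate, differences between environments such as TG_EE/TG_SE could not be fitted, and no call of a clock gene between genotypes was added. Added after seeing the data were the slopes on genes other than Arntl, the alternatives for pairs without Arntl and the count of groups without overlap. With 6 rats per group, Per1 and Per2 differences had standard errors of 0.17 to 0.24.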
